A study of Mus musculus with 12 samples.

Results

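Developmental homeobox genes encode DNA-binding proteins that lay out the body axis and organs of the embryo. The genes described here under that label are those of the Hoxc, Hoxd, Nkx, Lhx, Dlx, sine oculis (such as Six4 and Six5) and Pax families, and none was checked for a homeobox. They were taken by symbol, as every protein-coding autosomal gene of the mm10 build whose name starts with 1 of these 7 family names followed by a number, leaving out the B-cell regulator Pax5. The rule found 60 genes among 20665 autosomal protein-coding genes: 9 Hoxc, 9 Hoxd, 14 Nkx, 8 Lhx, 6 Dlx, 6 sine oculis and 8 Pax genes. Many lie next to each other, so that the 60 genes form 40 separate loci, and 6 of these loci hold 26 of the genes. Members of such a locus share peaks and are not independent of each other.

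The data are peak lists from chromatin immunoprecipitation followed by sequencing (ChIP-seq) of 3 histone marks, H3K27ac, H3K4me1 and H3K4me3, in cKit+ bone marrow cells sorted from C57BL/6 mice. Kit is the stem cell factor receptor, carried by blood stem cells and progenitors. A first group of mice carries a Phf6 R274X transgene (Tg) and the other is wild type (WT), and each mark was profiled in 2 libraries of either group. Phf6 is an X-linked gene for a chromatin protein, and R274X puts a stop codon into it. The promoter of the transgene, the state of the mice's own Phf6 and the age of the mice are not given in the sources used here.

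The lists held 31257 to 42124 peaks for H3K27ac, 100316 to 130348 for H3K4me1 and 34920 to 39584 for H3K4me3. They carry no read counts, so the depth of the libraries is unknown and a missing peak is a missing call, not an absent mark. In H3K4me1, the replicate 1 lists covered 66.3 Mb (WT) and 70.7 Mb (Tg), against 120 and 117 Mb in the replicate 2 lists. In all 4 H3K4me3 lists, the names given to the peaks spell the other genotype than the label does, while in the remaining 8 lists name and label match. Every H3K4me3 direction below therefore follows the label only. Of 12 stem and progenitor marker genes, 12 had H3K4me3 and H3K4me1 in all 4 libraries and 8 had H3K27ac in all 4. The 9 mature granulocyte markers also had all 3 marks in every library. In a bulk sample of this kind, a mark on fewer cells and less of the mark per cell cannot be told apart.

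H3K4me3 sits on promoters with CpG-rich DNA, H3K4me1 flanks active promoters and marks enhancers, and H3K27ac is found where promoters and enhancers are active. In cells that do not use them, developmental homeobox genes are classic targets of the Polycomb complexes, which place H3K27me3, a mark not measured in this series. Some Polycomb-bound promoters carry H3K4me3 as well and are then called bivalent. The Hoxc and Hoxd genes form compact clusters that pattern the body axis and limbs, Nkx genes specify organs such as heart, pancreas and thyroid, Lhx and Dlx genes act in the nervous system, skeleton and limbs, the sine oculis genes in eye and muscle, and Pax genes in brain, kidney, eye and muscle.

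The promoters of 5 of these genes show the range of states, from all marks to none. Each line below gives the 250 bases before the annotated transcription start, 5′ to 3′ on the strand of the gene, from RefSeq on GRCm38.p6 (the assembly called mm10). Capitals mark CpG dinucleotides. The Nkx6-1 window (chr5:101664712-101664961, minus strand) and the Hoxd13 window (chr2:74667975-74668224, plus strand) lie in promoters with H3K4me3 and H3K4me1 in all 4 libraries and H3K27ac in none. The Six5 window (chr7:19094294-19094543, plus strand) lies in the only matched member promoter with H3K27ac in all 4. The windows of Pax7 (chr4:139832969-139833218, minus strand) and Nkx2-9 (chr12:56613285-56613534, minus strand) belong to genes with no peak of any mark within 10 kb of either end in any of the 12 libraries.
Nkx6-1: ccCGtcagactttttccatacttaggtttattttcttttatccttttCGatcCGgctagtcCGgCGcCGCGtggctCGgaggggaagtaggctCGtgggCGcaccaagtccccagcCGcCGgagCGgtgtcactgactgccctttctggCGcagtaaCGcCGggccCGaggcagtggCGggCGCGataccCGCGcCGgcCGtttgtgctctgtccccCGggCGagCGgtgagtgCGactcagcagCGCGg
Hoxd13: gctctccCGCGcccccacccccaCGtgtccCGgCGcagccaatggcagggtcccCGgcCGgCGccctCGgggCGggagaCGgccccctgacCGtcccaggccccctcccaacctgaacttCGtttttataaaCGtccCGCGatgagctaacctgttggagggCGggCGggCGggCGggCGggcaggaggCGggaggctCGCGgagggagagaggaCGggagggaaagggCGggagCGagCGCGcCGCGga
Six5: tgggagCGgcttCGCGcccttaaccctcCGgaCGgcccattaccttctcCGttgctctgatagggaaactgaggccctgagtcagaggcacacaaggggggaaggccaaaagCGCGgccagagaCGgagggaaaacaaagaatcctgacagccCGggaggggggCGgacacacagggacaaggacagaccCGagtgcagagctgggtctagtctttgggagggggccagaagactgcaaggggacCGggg
Pax7: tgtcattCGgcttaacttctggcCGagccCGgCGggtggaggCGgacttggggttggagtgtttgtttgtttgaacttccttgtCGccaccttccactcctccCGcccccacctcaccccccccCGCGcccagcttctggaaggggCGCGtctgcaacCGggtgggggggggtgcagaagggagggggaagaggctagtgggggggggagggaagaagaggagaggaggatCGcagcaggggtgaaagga
Nkx2-9: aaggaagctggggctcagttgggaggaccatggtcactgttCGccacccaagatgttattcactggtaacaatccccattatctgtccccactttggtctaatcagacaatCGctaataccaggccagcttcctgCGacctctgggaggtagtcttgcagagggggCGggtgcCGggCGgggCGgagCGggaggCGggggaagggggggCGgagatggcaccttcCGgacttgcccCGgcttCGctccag

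These 5 windows held 30 CpG dinucleotides in Nkx6-1, 31 in Hoxd13, 13 in Six5, 13 in Pax7 and 13 in Nkx2-9. Within each state, the promoters with the most CpG dinucleotides were picked for printing, so these counts do not compare the states. The promoter table held entries for 41 of the 60 genes, with 50 promoters of 300 bases (250 before and 50 after the start). Among these, the 15 promoters covered by H3K4me3 in all 4 libraries had a median of 29 CpG dinucleotides, the 12 covered in 1 to 3 libraries had 17.5 and the 23 covered in none had 13. With 68.3% of the members and 79.6% of all autosomal genes in the table, a comparison of the whole family set with all genes by promoter is void (it needs 80%), and promoter and start values describe the matched genes only.

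Most of the 60 genes carried H3K4me3 and few carried H3K27ac. Within 10 kb of either gene end, 38 members (63.3%) had an H3K4me3 peak in all 4 libraries, beside 70.5% of all autosomal genes. Only 5 members (8.33%) had H3K27ac in all 4 libraries, beside 56.5% of all genes, and 50 (83.3%) had H3K27ac in none, beside 35.7%. H3K4me3 in all 4 libraries with H3K27ac in none was the state of 30 members (50%) and of 8.96% of all autosomal genes. Of the members with H3K4me3 in all 4 libraries, 30 of 38 (78.9%) lacked H3K27ac in every library, against 1851 of 14569 (12.7%) of all such genes.

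**Figure D1:**
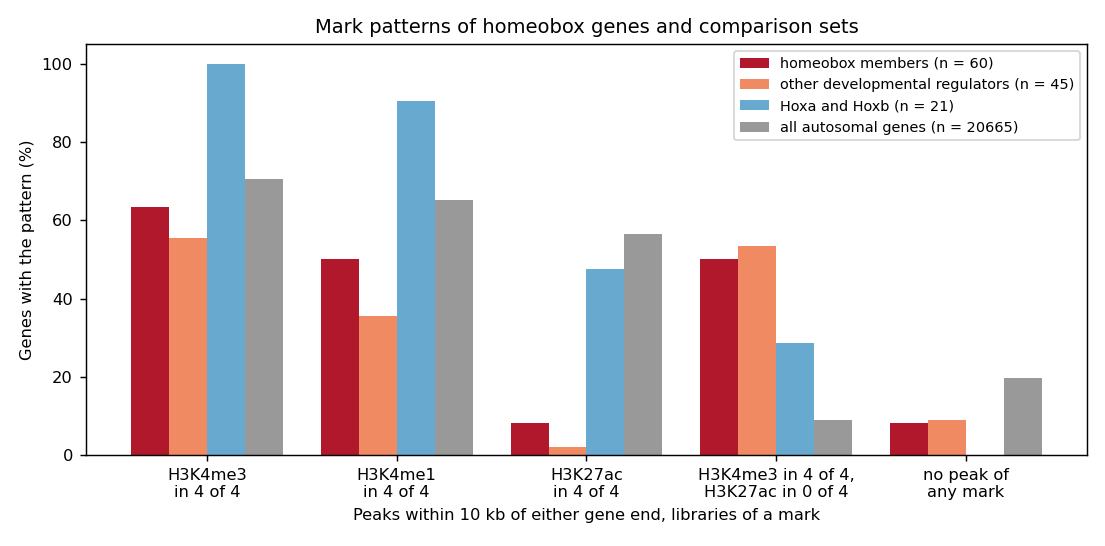
Share of genes (%) with each mark pattern within 10 kb of either gene end, for the 60 homeobox members, 45 other developmental regulators, the 21 Hoxa and Hoxb genes and all 20665 autosomal genes; each bar is a share of genes in 1 set, with no error bar. H3K4me3 without H3K27ac was found at 50% of members and 53.3% of the other developmental regulators, against 28.6% of Hoxa and Hoxb genes and 8.96% of all genes.

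H3K4me1 joined H3K4me3 at most of these genes. It was present in all 4 libraries at 30 members (50%), beside 65.3% of all autosomal genes. In 24 members (40.0%), both H3K4me3 and H3K4me1 were present in all 4 libraries and H3K27ac in none, beside 4.28% of all genes. Among these 24 were Hoxc9, Hoxc10, Hoxd3, Hoxd8 to Hoxd13, Nkx1-1, Nkx1-2, Nkx2-3, Nkx2-4, Nkx6-1, Nkx6-3, Lhx2, Lhx4, Lhx6, Dlx1, Dlx2, Dlx4, Pax2 and Pax6. The reverse state, H3K4me1 in all 4 libraries with no H3K4me3, was found at 0 members and at 309 of all genes. Counting only regions whose nearest gene was the member left 26 genes with H3K4me3 in all 4 libraries and H3K27ac in none, and a window of 2 kb left 26 as well. All genes were not recounted in these ways, so both counts concern the members alone and not their contrast with all genes.

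The same counts were made for other developmental regulators and for Hoxa and Hoxb, the Hox clusters that blood progenitors use. Among 45 autosomal genes of the Gata, Sox, Tbx, Fox, bHLH and signalling groups of the embryo, 25 had H3K4me3 in all 4 libraries and 24 of these 25 (96.0%) had H3K27ac in none. All 21 Hoxa and Hoxb genes had H3K4me3 in all 4 libraries, 10 had H3K27ac in all 4 and 6 had it in none. These counts are descriptions of gene sets picked by name, without a test.

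**Figure D2:**
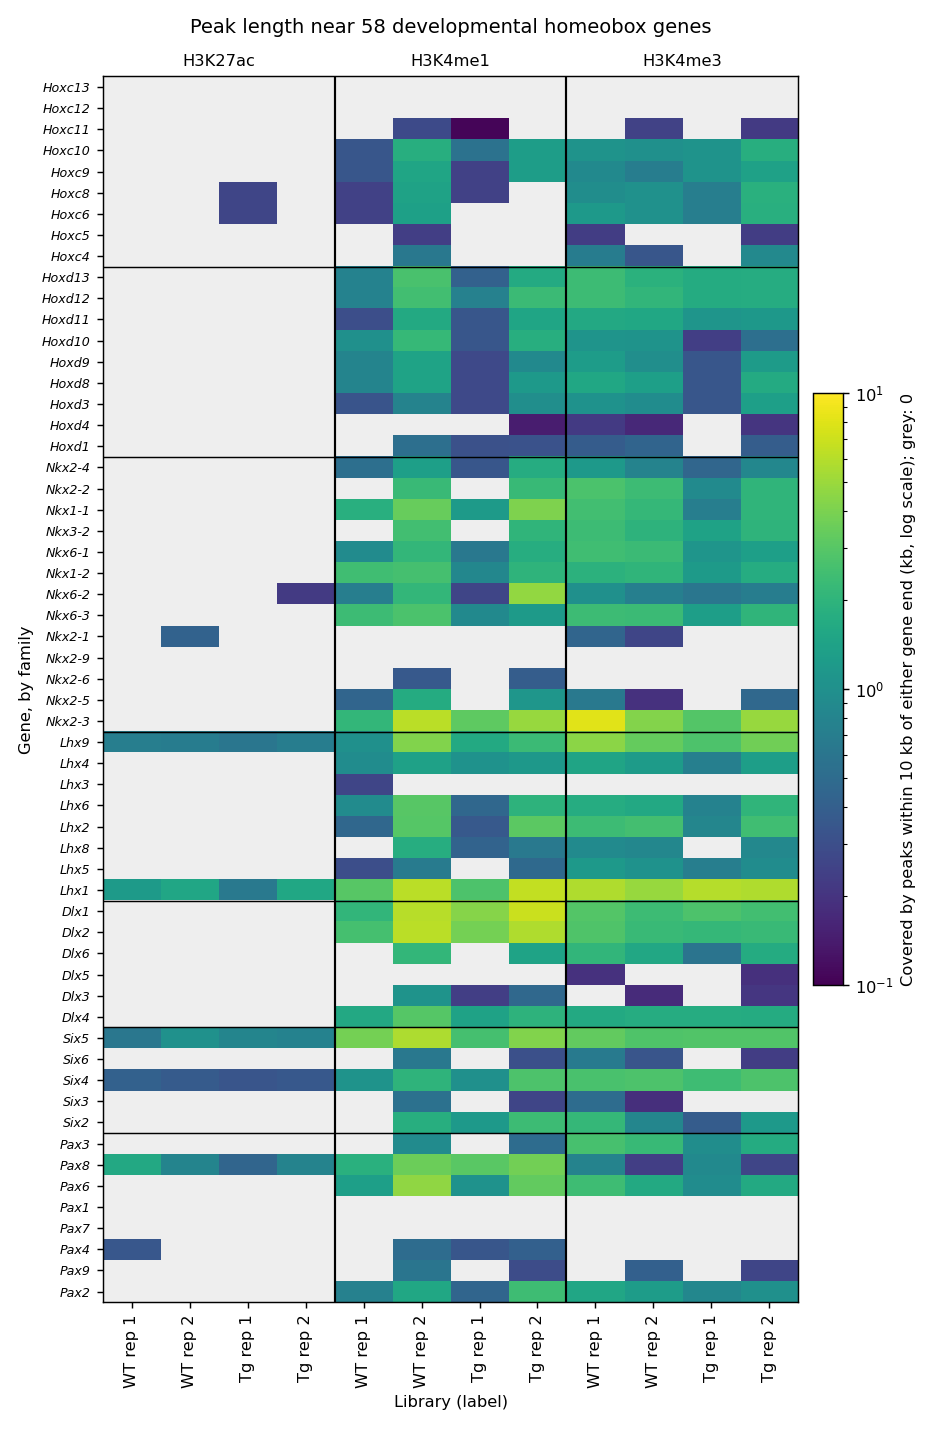
Peak length found within 10 kb of a gene end (kb, log colour scale, grey for 0) for each of 58 of the members, in rows by family, and each of the 12 libraries, in columns by mark and label. H3K27ac is grey in all 4 libraries at 48 of them, H3K4me3 fills most rows, and the H3K4me3 column of Tg replicate 1 has a peak at 37 of them against 47 or 48 in the other 3.

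Counted by family, H3K4me3 was present in all 4 libraries at 7 of 9 Hoxd, 6 of 8 Lhx, 4 of 6 Dlx, 4 of 6 sine oculis, 9 of 14 Nkx, 4 of 8 Pax and 4 of 9 Hoxc genes. The Dlx and Hoxd genes had no H3K27ac in any library. Another 14 members (23.3%) had H3K4me3 in only 1 to 3 libraries, a state of 5.13% of all genes, among them Hoxc4, Hoxc5, Hoxc11, Hoxd1, Hoxd4, Nkx2-1, Nkx2-5, Lhx8, Dlx3, Dlx5, Six3, Six6 and Pax9. H3K4me3 was called in no library at 8 members, the 5 below and Lhx3, Pax4 and Nkx2-6.

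Exactly 5 members had no peak of any of the 3 marks in any library: Pax1 (a regulator of the vertebral column and thymus), Pax7 (a regulator of muscle stem cells), Nkx2-9 and the posterior cluster genes Hoxc12 and Hoxc13. That is 8.33% of the members and 19.7% of all autosomal genes.

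The H3K4me3 regions at these genes were short and of middling strength. Peaks that overlap between lists were joined to regions, and 44 regions present in all 4 libraries had only members as their nearest genes. Regions that were as near to a gene outside the set were left out. Their median width was 1140 bp (quartiles 891 and 1536 bp), against 1811 bp over 16445 such regions near all autosomal genes and 1775 bp over 22 at Hoxa and Hoxb. Regions near all genes with H3K27ac in all 4 libraries had a median of 2287 bp, and those with H3K27ac in none 1022 bp. By the authors' −log10 q, ranked within each list, the 44 regions stood at a median percentile of 50.7, against 76.1 for all such regions and 56.9 for those without H3K27ac. The other developmental regulators were alike, with 31 such regions of median width 1139 bp at a median percentile of 50.9.

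H3K27ac overlapped 2 of these 44 regions, those of Pax8 (all 4 libraries) and Lhx1 (3 libraries). The other 42 (95.5%) had none, against 22.3% of all such regions and 100% of the 31 at the other developmental regulators. The 44 include no region of Six5, whose promoter had H3K4me3 and H3K27ac in all 4 libraries. All 44 overlapped H3K4me1 in at least 1 library. In WT, H3K4me1 peaks covered 32.7% of their length in replicate 1 and 72.2% in replicate 2, and in Tg 29.8% and 66.6%. Over all such regions the shares were 42.9% and 62.2% in WT and 38.4% and 59.4% in Tg. The order of the gene sets thus differed between the replicate numbers, whose lists differ in covered length.

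The broadest H3K4me3 lay at a few genes of the Lhx, sine oculis and Nkx families. Lhx1, which directs kidney and head formation, had the widest constant region, 4270 bp (chr11:84522115-84526384). It spans the annotated start of the gene (84525534, minus strand) and reaches upstream of it. Around Lhx1, H3K4me3 peaks covered 5774 and 4917 bp for WT against 5964 and 5774 bp for Tg. Nkx2-3, a regulator of spleen and gut vessels, followed with 8150 and 4243 bp for WT against 2913 and 4923 bp for Tg. The WT and Tg values overlapped at Nkx2-3, where the range was set by WT replicate 1 and Tg replicate 1. At Lhx1 the lower Tg value equalled the higher WT value. Regions whose nearest gene was Lhx1 held 3775 and 3136 bp for WT against 4153 and 3845 bp for Tg, without overlap. The rest lay nearest to its neighbour Aatf, with 1999 and 1781 bp for WT against 1811 and 1929 bp for Tg. The difference in this part of the length was not tested.

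Six4, which acts in muscle precursors, had 2682 and 2785 bp of H3K4me3 for WT against 2403 and 2752 bp for Tg. Lhx9, a gonad regulator, had 4506 and 3346 bp for WT against 2778 and 3714 bp for Tg. The groups overlapped at Six4 and Lhx9. Of the Lhx9 length, 1403 and 1377 bp for WT and 1330 and 1297 bp for Tg lay nearest to 2310009B15Rik. Six5, Dlx1 and Dlx2, also among the 8 with the most H3K4me3, had means over the 4 libraries of 2957, 2629 and 2381 bp. Of the Dlx1 length, 1436 and 826 bp for WT and 1277 and 1208 bp for Tg lay nearest to Dlx2. None of the 44 regions described above was that of Six4 or Six5.

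At annotated transcription starts, H3K4me1 covered part of the matched members in the replicate 2 lists and few in the replicate 1 lists. In the 250 bases after the start, it covered 20.0% of the 50 member starts in WT replicate 1 and 48.0% in WT replicate 2, and 18% and 42.0% in Tg. At 13 starts of Hoxa and Hoxb the shares were 30.8% and 30.8% in WT and 46.2% and 46.2% in Tg, above the members in 3 of the 4 libraries. Over the matched autosomal genes they were 9.7% and 18% in WT and 8.8% and 16.8% in Tg. H3K4me1 lay over 8 of the 50 member promoters in all 4 libraries. H3K4me3 in the same bases covered 38.0% of member starts in each list but that of Tg replicate 1, where it covered 24%, beside 58.4% to 60.8% over the matched autosomal genes. Within 1 kb of a start, H3K27ac was found at 1 of 41 matched members, Six5, in each of the 4 libraries, beside 48.2% to 51.1% of the matched autosomal genes. These shares stand side by side as descriptions, under the limit of the promoter table given above.

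**Figure D3:**
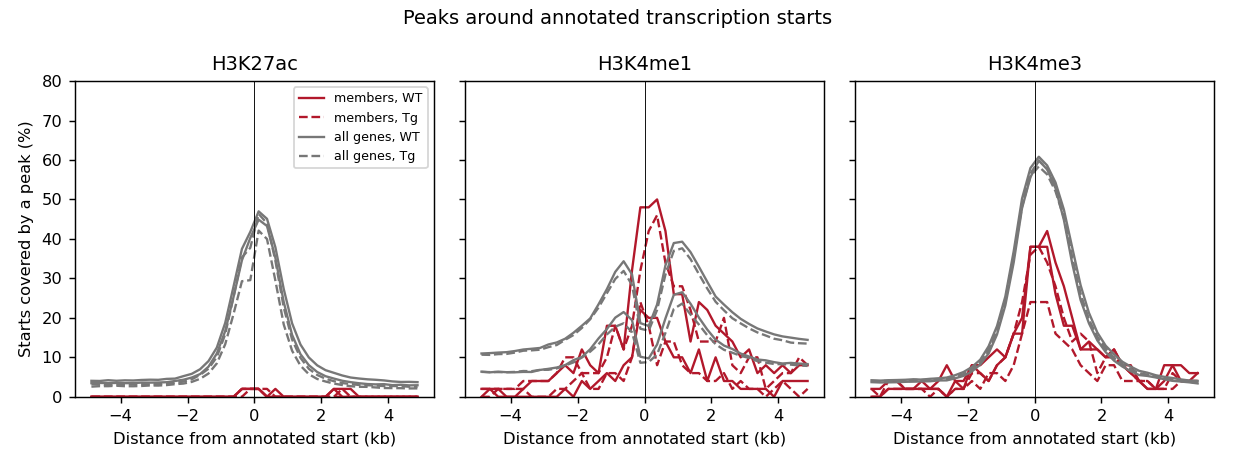
Share of annotated starts (%) covered by a peak against distance from the start (kb, negative upstream, bins of 250 bases), for 50 starts of the 41 matched members (red) and the starts of the matched autosomal genes (grey), 2 WT libraries as solid and 2 Tg libraries as dashed lines per mark. In WT replicate 2, H3K4me1 in the 250 bases after the start stands at 48.0% for the members and at 18%, in a dip, for the autosomal genes.

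H3K27ac was called in any library at 10 members (16.7%), and a closer look at position left it at few of them. A region present in all 4 libraries within 10 kb was found at Pax8, Six5, Lhx1, Lhx9 and Six4. The Lhx9 region lay 7324 bp away inside 2310009B15Rik, the Six4 region 9583 bp away inside Mnat1, and the constant region near Lhx1 inside Aatf. With each region given to its nearest gene, 2 members had H3K27ac in all 4 libraries, Pax8 and Six5, and with a window of 2 kb 1 did.

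Pax8, a regulator of thyroid and kidney, carried H3K27ac within the gene (chr2:24428538-24430014), with 1375 and 793 bp for WT against 447 and 782 bp for Tg. Both Tg values were below both WT values, and the replicate 2 values, 793 and 782 bp, lay close together. Another 240 bp of H3K27ac in the gene was called in WT replicate 1 only. Six5, a gene beside the myotonic dystrophy kinase gene Dmpk, carried it over its start (chr7:19094076-19095280), with 618 and 1032 bp for WT against 820 and 765 bp for Tg, and the groups overlapped. Dmpk lies 255 bp from that region. At Lhx1 a second region over the gene itself had 280 and 690 bp for WT against 0 and 326 bp for Tg. The other calls were in 1 library each, at Pax4, Nkx2-1, Nkx6-2 and a 263 bp peak shared by Hoxc6 and Hoxc8.

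In limma, fitted over all 13079 genes with H3K27ac in at least 2 libraries on log2 of the covered length plus 500 bp, 36 genes (0.275%) differed between Tg and WT at an adjusted p under 0.05 (0 without either WT library, 83 without Tg replicate 1 and 117 without Tg replicate 2). None of the 5 members tested was among them (0 of 5, and 0 at an unadjusted p under 0.05, against 12.6% of all tested genes). On this scale, Pax8 gave a difference (Tg minus WT) of -0.38 (SE 0.21, adjusted p = 0.530) and Six5 of 0.20 (SE 0.27, adjusted p = 0.803). Lhx9, with 712 and 695 bp for WT against 608 and 698 bp for Tg, gave 0.15 (adjusted p = 0.740). Six4, with 418 and 372 bp for WT against 339 and 354 bp for Tg, gave 0.06 (adjusted p = 0.927), and Lhx1, with 1226 and 1522 bp for WT against 641 and 1545 bp for Tg, gave -0.06 (adjusted p = 0.940). The mean length before normalization was lower in Tg at all 5, so that the fitted values above 0 at Six5, Lhx9 and Six4 depend on the normalization. Tg values lay below WT values without overlap at 2 of the 5, Pax8 and Six4, in length before normalization, and at 45.2% of all tested genes. Tg values lay above WT values at 0 of the 5, and at 5.51% of all tested genes. The p-values of this and the later fits rest on the spread between 2 libraries per genotype, and the labels do not say whether each library came from 1 mouse.

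No member lay within 10 kb of an H3K27ac region that both libraries of a genotype had and neither library of the other had. Such Tg-only regions lay near 2.45% of all autosomal genes and WT-only regions near 4.87%. At Hoxa and Hoxb H3K27ac covered 6.11 and 6.51 kb in WT and 12.2 and 9.70 kb in Tg, while in the windows of the members it covered 4.94 and 4.84 kb in WT and 3.12 and 4.36 kb in Tg. The members' windows take in the regions inside 2310009B15Rik, Aatf and Mnat1 described above. Measured per Mb of peaks, the members' share was 108 and 132 bp for WT against 109 and 129 bp for Tg, with the groups overlapping.

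The 2 Hox clusters outside Hoxa and Hoxb stayed nearly free of H3K27ac in both genotypes. Across the Hoxd cluster with 10 kb on each side, H3K27ac covered 0 bp in all 4 libraries, and H3K4me3 covered 4.26 and 3.85 kb in WT and 2.04 and 3.81 kb in Tg. Across Hoxc, H3K27ac covered 0.263 kb in Tg replicate 1 and 0 in the other 3 libraries, and H3K4me3 covered 2.72 and 2.59 kb in WT and 1.78 and 4.38 kb in Tg. For comparison, H3K4me3 across Hoxa covered 25.6 and 22.8 kb in WT and 16.1 and 24.7 kb in Tg. In both Hoxc and Hoxd, the lowest H3K4me3 value was that of Tg replicate 1, and in Hoxc the highest was that of Tg replicate 2.

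No difference in H3K4me1 passed the test at the members. Per Mb of peaks in the list, their windows held 554 and 835 bp of H3K4me1 in WT and 497 and 756 bp in Tg, and replicate 2 was the higher in both genotypes. Peaks were called at 35 and 50 members in WT and at 37 and 46 in Tg. In limma 0 of 15833 genes passed the threshold (0.0%), with 1262 (7.97%) at an unadjusted p under 0.05. None of the 48 members tested passed either, and 4 of the 48 had an unadjusted p under 0.05, 1 higher and 3 lower in Tg. The members' median difference was -0.08 on the log2 scale, with 22 above 0 and 26 below (16 higher and 32 lower in Tg by mean length before normalization), and the lowest adjusted p was 0.514.

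The H3K4me1 values furthest below WT were those of Hoxc6, a Hox gene of the trunk, with 245 and 1364 bp for WT against 0 and 0 bp for Tg (log2 difference -0.96, SE 0.26, adjusted p = 0.514). Nkx6-3, a regulator of the stomach lining, had 2369 and 2717 bp for WT against 883 and 1221 bp for Tg (log2 difference -0.91, SE 0.34, adjusted p = 0.602). Most of that length lay inside its neighbour Ank1, a gene for a red cell membrane protein, with 1566 and 1208 bp for WT against 577 and 694 bp for Tg, and more was nearer to Gpat4. Regions whose nearest gene was Nkx6-3 held 269 and 873 bp for WT against 0 and 527 bp for Tg, and these overlapped. The 8 erythroid markers summed to 13.3 and 23.7 kb of H3K4me1 in WT and 6.02 and 15.3 kb in Tg, and the part of this in the Nkx6-3 value was not tested. The size of the Hoxc6 value depends on the 500 bp added, since both Tg libraries were at 0. Over the whole window both genes had the Tg values below the WT values, as did Nkx1-2, with 2415 and 2552 bp for WT against 845 and 1983 bp for Tg (log2 difference -0.61, adjusted p = 0.687). These 3 of 48 genes (6.25%) compare with 6.59% of all tested genes, and the reverse, with Tg above WT, was found at 0 of 48 and at 2.6%. Hoxc8, Nkx2-5 and Hoxd9 had log2 differences of -0.71, -0.66 and -0.56, with overlapping groups.

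At the other end stood Six2, which maintains kidney progenitors, with 0 and 1783 bp of H3K4me1 for WT against 1193 and 2354 bp for Tg (log2 difference 1.09, SE 0.41, adjusted p = 0.611). Dlx1, a regulator of forebrain interneurons, had 2059 and 6112 bp for WT against 4321 and 6933 bp for Tg (log2 difference 0.59, SE 0.26, adjusted p = 0.656). The groups overlapped at both genes. Pax8, Pax4, Hoxd1 and Six4 followed with log2 differences of 0.40, 0.36, 0.27 and 0.27.

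Tg-only H3K4me1 regions lay near 3 members (5%), Dlx1, Six2 and Pax2, beside 6.16% of all genes. WT-only regions lay near 4 (6.67%), Lhx9, Dlx4, Hoxc8 and Hoxc6, beside 11.2%, and Hoxc8 and Hoxc6 share 1 region. The region counted for Lhx9 lay 6917 bp away inside 2310009B15Rik. With −log10 q of at least 5 the genes in each direction were others, with 0 shared. Tg-only regions then lay near Lhx9, Pax8 and Nkx2-3 (5%, beside 4.89% of all genes). WT-only regions then lay near Nkx6-1 and Lhx5 (3.33%, beside 6.92%). The strongest, a 654 bp region 3915 bp from Six2 (chr17:85692169-85692822), stood at percentile 36.1 of strength in its lists. These counts depend on single libraries: with 1 library left out, the Tg-only count ranged from 3 to 21 (21 without Tg replicate 1, 16 without WT replicate 2, 10 without Tg replicate 2) and the WT-only count from 5 to 32 (32 without WT replicate 1, 22 without Tg replicate 2, 8 without WT replicate 2). Leaving out a library loosens the condition for every gene. The shares of all genes are not given for this setting, so these counts show nothing particular to the members.

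H3K4me3 at the members was lowest in 1 library, Tg replicate 1. Peaks were called at 49 and 50 members in WT, 38 in Tg replicate 1 and 49 in Tg replicate 2. Member windows held 80.5 and 65.9 kb of H3K4me3 in WT and 45.4 and 67.1 kb in Tg. Per Mb of peaks in the list, this came to 1847 and 1723 bp for WT against 1111 and 1677 bp for Tg.

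The same library was low at Hoxa and Hoxb, with 634 bp per Mb against 1047 to 1087 bp in the other 3, and at the other developmental regulators, with 710 against 1224 to 1318 bp. Its total covered length lay within the range of the other lists, at 40.9 Mb against 38.3 to 43.6 Mb. It had the fewest peaks, 34920 against 36676 to 39584, and the largest median width, 736 bp against 614 to 666 bp. The part of this in the values of the members was not tested. Of 98 H3K4me3 regions with only members as nearest genes, 23 (23.5%) were present in every library but Tg replicate 1, against 3.82% of all 44957 regions.

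**Figure D4:**
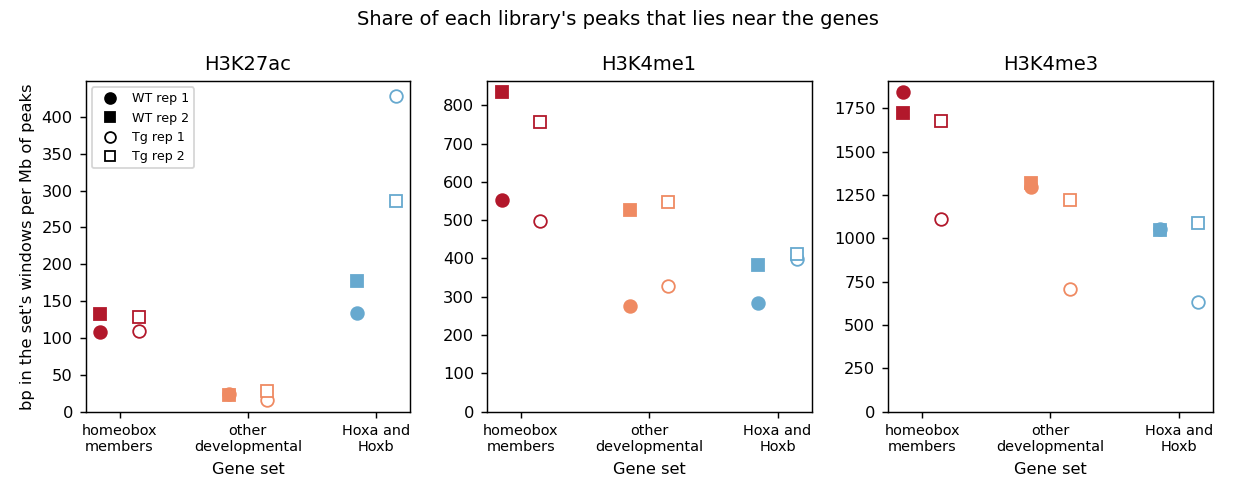
Length in the windows of each gene set per Mb of peaks in the list (bp per Mb) for the homeobox members, the other developmental regulators and the Hoxa and Hoxb genes, 1 point per library, filled for WT and open for Tg, circles for replicate 1 and squares for replicate 2. For H3K4me3, Tg replicate 1 is the lowest of 4 in each set (1111, 710 and 634 bp per Mb); for H3K4me1, replicate 2 is the higher in each genotype at the members.

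Granulocyte, B-lymphoid and erythroid marker genes had their highest H3K4me3 in that library. The 9 granulocyte markers had 49.2 and 48.5 kb of summed H3K4me3 in WT and 81.4 and 51.1 kb in Tg, 9 of 9 were higher in Tg (median log2 difference 0.41) and 0 of 9 were without a peak in any H3K4me3 library. The 7 B-lymphoid markers had 19.5 and 18.3 kb in WT and 29.4 and 20.0 kb in Tg, with 7 of 7 higher. The 8 erythroid markers had 22.2 and 26.97 kb in WT and 32.9 and 28.7 kb in Tg, with 7 of 8 higher and none at 0. The 8 T-lymphoid markers summed to 13.1 to 14.7 kb and the 12 stem and progenitor markers to 81.3 to 98.8 kb over the 4 libraries, both lowest in Tg replicate 1. The 10 markers of stroma and endothelium had 14.4 and 11.02 kb in WT and 8.95 and 11.8 kb in Tg, highest in WT replicate 1 and lowest in Tg replicate 1, as over the members, and Lepr was at 0 in Tg replicate 1. For H3K27ac, whose peak names match the labels, the granulocyte markers had 104.8 and 107.5 kb in WT and 54.5 and 49.1 kb in Tg. The H3K27ac lists themselves covered 45.7 and 36.6 Mb in WT and 28.5 and 33.8 Mb in Tg. The part of this list size in the marker lengths was not tested. The stem and progenitor markers had 52.6 and 45.9 kb of H3K27ac in WT and 39.4 and 45.7 kb in Tg. For the erythroid, B-lymphoid, T-lymphoid and stroma and endothelium markers, the H3K27ac values of WT and Tg overlapped. The part of these markers in the values of the homeobox genes was not tested.

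In limma no gene passed the threshold for H3K4me3 (0 of 15800, 0.0%), with 761 (4.82%) at an unadjusted p under 0.05. None of the 52 members tested passed, and 11 had an unadjusted p under 0.05, with 3 fitted values above 0 (Hoxc9, Hoxc5 and Dlx5) and 8 below. At Hoxc5 and Dlx5 the lengths before normalization hardly differed. The members' median log2 difference was -0.20 against 0.00 over all genes, with 39 of 52 below 0 (42 of 52 by mean length before normalization), and the lowest adjusted p was 0.750. Without Tg replicate 1 the median was -0.05 with 29 of 52 lower, and without Tg replicate 2 it was -0.35 with 39 of 47 lower. Groups did not overlap, with Tg below WT, at 18 of 52 members (34.6%), against 18.8% of all tested genes, and with Tg above WT at 1 (1.92%), against 11.7%. The other developmental regulators gave a median of -0.19 (33 of 38 lower) and the Hoxa and Hoxb genes -0.28 (18 of 21 lower).

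Direction was counted by family. All 12 tested Nkx genes and all 6 sine oculis genes had values below 0, with medians of -0.32 and -0.27. The 9 Hoxd genes had a median of -0.25 with 8 lower, the 7 Lhx genes -0.20 with 6 lower and the 5 Pax genes -0.33 with 4 lower. The 6 Dlx genes were near 0 (median 0.04), and 6 of the 7 tested Hoxc genes had values above 0. In mean length before normalization, 5 of the 7 Hoxc genes, 3 of the 6 Dlx genes and 0 of the 9 Hoxd genes were higher in Tg: at Hoxc11, Dlx5 and Hoxd4 the fitted value was above 0 and the Tg mean below the WT mean. The Hoxc genes share peaks, and the difference between families was not tested.

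**Figure D5:**
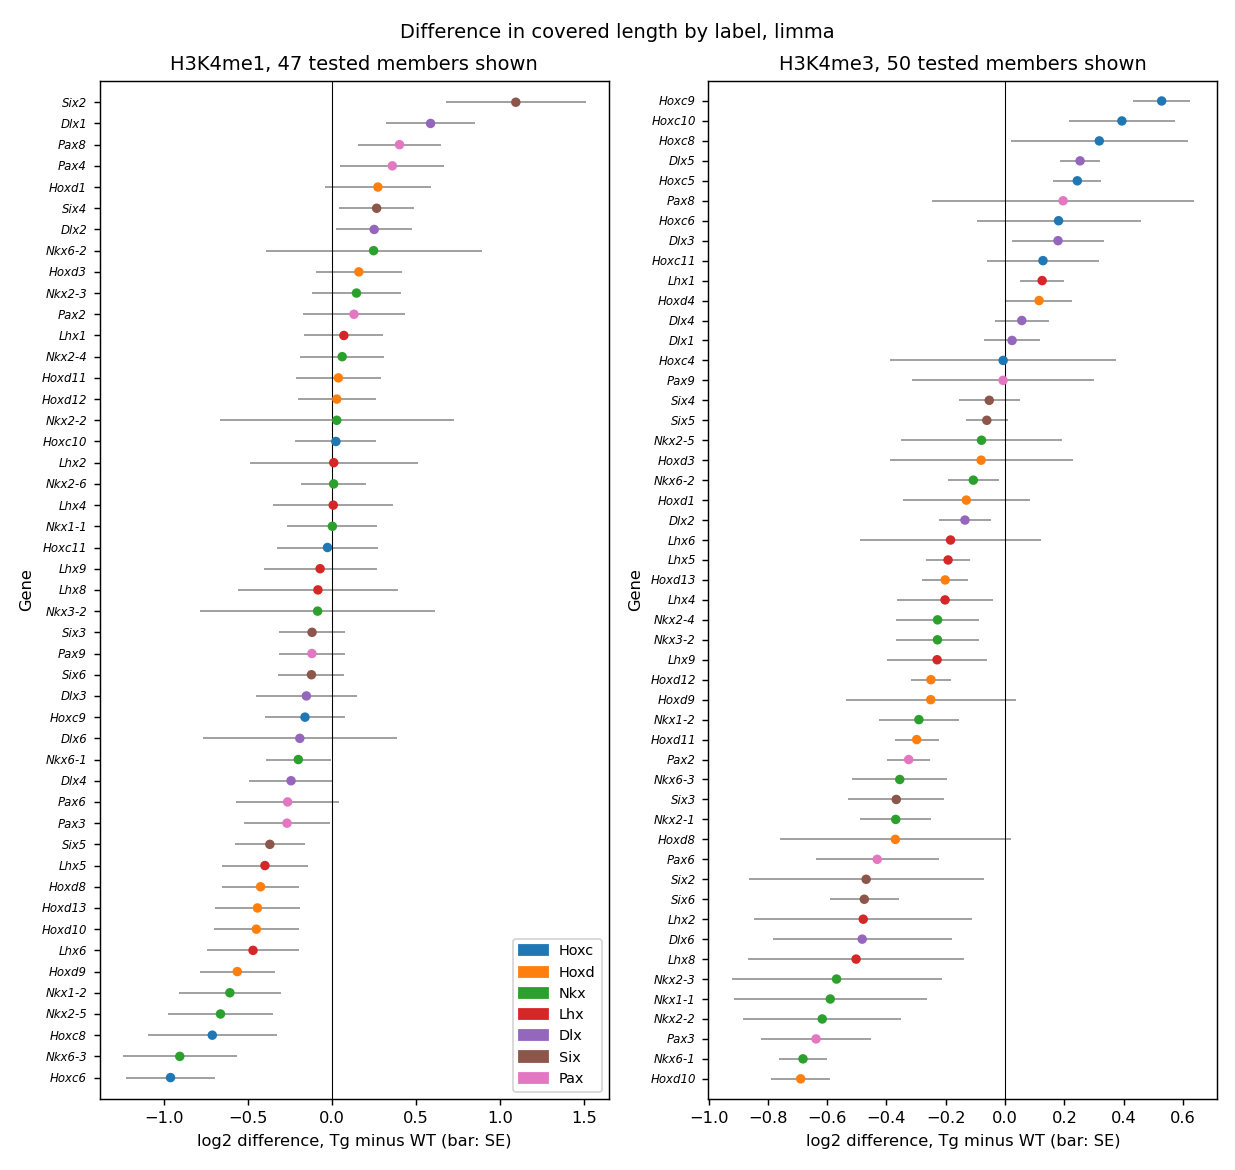
Difference in covered length, Tg minus WT by label (log2 scale, limma), with its SE as a bar, for tested members, coloured by family: 47 members for H3K4me1 and 50 for H3K4me3. No member passed the threshold; for H3K4me3 37 of 50 points lie below 0, from -0.69 at Hoxd10 to 0.53 at Hoxc9.

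The lowest H3K4me3 value was that of Hoxd10, a limb patterning gene, with 1087 and 1062 bp for WT against 234 and 539 bp for Tg (log2 difference -0.69, SE 0.10, adjusted p = 0.792). Nkx6-1, a regulator of insulin-producing beta cells, had 2430 and 2316 bp for WT against 1111 and 1357 bp for Tg (log2 difference -0.68, SE 0.08, adjusted p = 0.750). Pax3, which acts in neural crest and muscle precursors, had 2620 and 2208 bp for WT against 955 and 1707 bp for Tg (log2 difference -0.64, SE 0.18, adjusted p = 0.916). At all 3 genes both Tg libraries were below both WT libraries, so Tg replicate 2 was low there as well. No H3K4me3 region had Hoxd10 as its nearest gene, and the length counted for it lay nearest to Hoxd8, Hoxd9 and Hoxd11.

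Nkx2-2, a regulator of ventral neural tube and pancreas, had 2727 and 2363 bp for WT against 903 and 2052 bp for Tg (log2 difference -0.62, SE 0.27). Nkx1-1 had 2472 and 2166 bp for WT against 715 and 2052 bp for Tg (log2 difference -0.59, SE 0.32). For both, the Tg replicate 2 value came close to the WT values and that of Tg replicate 1 did not. Nkx2-3, described above, gave -0.57 (SE 0.35) with overlapping groups, and the adjusted p of all 3 was 0.916.

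The highest values came from the Hoxc cluster. Hoxc9 had 890 and 701 bp of H3K4me3 for WT against 1063 and 1404 bp for Tg (log2 difference 0.53, SE 0.10, adjusted p = 0.916). It was the only member with both Tg values above both WT values over the whole window, while at Lhx1 this held for the regions nearest to the gene. Hoxc10 had 1073 and 1011 bp for WT against 1063 and 1793 bp for Tg (log2 difference 0.39, SE 0.18), and Hoxc8 had 961 and 1023 bp for WT against 716 and 1858 bp for Tg (log2 difference 0.32, SE 0.30). These genes are neighbours that share peaks, and at each the highest library was Tg replicate 2. The next fitted values, 0.25 at Dlx5 and 0.24 at Hoxc5, do not correspond to longer peaks in Tg. Dlx5 had 193 and 0 bp for WT against 0 and 188 bp for Tg, and Hoxc5 had 229 and 0 bp for WT against 0 and 232 bp for Tg. Pax8 had 784 and 235 bp for WT against 889 and 263 bp for Tg (log2 difference 0.20), with overlapping groups.

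WT-only H3K4me3 regions lay near 11 members (18.3%), beside 3.33% of all autosomal genes, and Tg-only regions near 0, beside 2.0%. The 11 genes rest on 8 regions of 309 to 510 bp. A region in Hoxd11 (chr2:74679636-74679944) counted for Hoxd10, Hoxd11, Hoxd12 and Hoxd13, and single regions lay, among others, in Nkx2-1, Nkx2-2, Lhx5 and Six3 and over an end of Nkx3-2. The region counted for Nkx6-3 was nearer to Gpat4. All were weak, at percentiles 1.34 to 27.1 of strength in their lists. With −log10 q of at least 5 the count was 12 (20%, beside 2.51% of all genes), and 3 of the 11 genes were among them. With a window of 2 kb the count was 5 (8.33%, beside 1.13%). In the 10 kb window it was 31 without Tg replicate 2 and 17 without WT replicate 2. Left without Tg replicate 1, the WT-only count was again 11, and the Tg-only count was 6: Lhx8, Dlx5 and Hoxc8 to Hoxc11. Leaving out a library loosens the condition for every gene, and the shares of all genes are not given for this setting. The counts with 1 library left out therefore show nothing particular to the members.

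Genes whose products work with these proteins or on their chromatin, from lists chosen by name, were counted in the same way. H3K4me3 was present in all 4 libraries at 31 of 32 Polycomb genes, 17 of 17 genes of the H3K4 methyltransferase complexes, 16 of 18 Hox and LIM cofactor genes (such as Meis1 and Ldb1) and 10 of 11 genes for cofactors of the sine oculis proteins (such as Eya1). H3K27ac was present in all 4 at 29, 17, 11 and 6 of them. In limma 0 of these genes rose and 0 fell in any of the 3 marks. Their median H3K4me3 differences were 0.00 for Polycomb genes, -0.01 for the methyltransferase complexes, -0.01 for Hox and LIM cofactors and -0.03 for the cofactors of the sine oculis proteins.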

How the data were processed

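Each library's peaks were deposited by the authors as 1 narrowPeak list. The submitters' processing notes name build mm10 and the tools MACS2, Bowtie2, deepTools, FastQC, SAMtools and Trim Galore; their versions, settings and any control library are not given in the sources used here. Per the labels, reads were single-end of 75 bases. Each deposited peak has a fold enrichment (a ratio), a −log10 p and −log10 q and a score of 10 times the −log10 q, which depend on depth and were used only within a list.

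Genes and promoters came from RefSeq tables of GRCm38.p6. Each gene's value was the number of bp in peaks at most 10 kb from a gene end (1 bp counted as present). Genes with a peak in at least 2 of 4 libraries were tested, on log2 after adding 500 bp and quantile normalization. Each mark was fitted in limma 3.58.1 (R 4.3.3; lmFit, eBayes, Benjamini-Hochberg over all genes tested, threshold 0.05), which was tested on simulated data. All adjusted p-values are limma's, and "differed", "rose" and "fell" as calls mean an adjusted p under that threshold. Strength of a region of 1 genotype is the smaller of its 2 peaks' percentiles of −log10 q.

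The genes and lists were chosen with earlier results of these data known. Named genes are, per mark, the 6 highest and 6 lowest differences, members with H3K27ac in all 4 libraries, the 8 with the most H3K4me3, up to 8 near regions of 1 genotype, and the clusters. Alternatives were total scaling, no normalization, a pseudocount of 100 bp, no filter, a 2 kb window, whole genes, −log10 q of at least 5, a replicate block and leaving out each library; the nearest-gene counts and lengths, the directions by mean length and the genotype-only counts with 1 library left out were added after seeing the data. Values of a few single genes are not reported here, and the figures by gene leave them out, while the counts include them.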

Additional observations from a re-analysis of the deposited data

How the results depend on the processing

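The main limits are 2 libraries per genotype, unknown depth, and lists in which H3K4me1 and H3K4me3 coverage of these genes moves with single libraries. No alternative called a member in any mark. The count of 30 members with H3K4me3 in all 4 libraries and H3K27ac in none stayed between 26 and 36. Of the results for all genes and sets, 37 values under an alternative moved by over 1.5 times and 115 did not; of the single-gene values, 19 reversed and 327 did not. The cause was not tested for any of them.

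The 36 genes called for H3K27ac became 3 with total scaling, 1 with no normalization, 0 with a pseudocount of 100 bp, 9 with no filter, 8 with a 2 kb window and 0 with −log10 q of at least 5. Leaving out 1 library gave 0 to 117 (0 without either WT library, 83 without Tg replicate 1, 117 without Tg replicate 2). No filter gave 1 gene for H3K4me1 and 4 for H3K4me3. No normalization moved the median of all genes for H3K27ac to -0.20.

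The replicate numbers are shared across genotypes without a stated pairing, and same-numbered deviations correlated over genes at -0.20 (H3K27ac), 0.21 (H3K4me1) and -0.08 (H3K4me3). A replicate block in the fit left 6 genes called for H3K27ac, and with crossed numbers 10; the block called no gene in the other marks and no member in any.

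Members with H3K27ac in all 4 libraries numbered 1 with a 2 kb window and 2 by nearest gene only. For H3K4me1 the 30 became 15 with a 2 kb window and 9 with −log10 q of at least 5. WT-only H3K4me1 regions lay near 2 members with −log10 q of at least 5 (6.92% of all genes). They lay near 2 when peaks had to cover a larger part of the region (8.78% of all genes) and 1 with a 2 kb window (3.57%). WT-only H3K4me3 regions lay near 5 with a 2 kb window (1.13% of all genes). With 1 library left out, genotype-only counts ranged from 0 to 2 (H3K27ac Tg-only, values 1 and 2 without a Tg library), 0 to 2 (H3K27ac WT-only, with 1 and 2 without a WT library), 3 to 21 (H3K4me1 Tg-only, 10 without Tg replicate 2), 5 to 32 (H3K4me1 WT-only, 8 without WT replicate 2), 0 to 6 (H3K4me3 Tg-only, 1 without Tg replicate 2) and 11 to 31 (H3K4me3 WT-only, 17 without WT replicate 2). These are counts of members without the shares of all genes, for which the condition is loosened as well.

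Signs of small differences were not stable. With no normalization, H3K27ac differences became -0.080 (Six4), -0.063 (Lhx9) and -0.018 (Six5), and the H3K4me3 difference of Dlx5 -0.0052. With −log10 q of at least 5, Lhx1 gave 0.11 for H3K27ac, Nkx2-5 0.035, Six4 -0.35 and Hoxd1 -0.074 for H3K4me1, and Hoxc8 -0.17 for H3K4me3. With 1 library left out, ranges were -0.33 to 0.20 (Lhx1 H3K27ac, 0.14 without WT replicate 2), -0.11 to 0.31 (Six4 H3K27ac, -0.079 without Tg replicate 1), -0.14 to 0.49 (Six5 H3K27ac), -0.19 to 0.68 (Hoxd1 H3K4me1), -0.057 to 0.75 (Pax4 H3K4me1), -0.30 to 0.77 (Pax8 H3K4me3, -0.16 without WT replicate 2) and -0.10 to 0.69 (Hoxc8 H3K4me3).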
